A study of Homo sapiens with 16 samples.

Results

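Genes that mark the fetal liver or liver progenitor cells were examined in HepG2, an established line of human liver tumour cells, after knockdown of HCF-1, a chromatin-bound transcriptional cofactor encoded by HCFC1. The 10 genes were chosen by name (AFP, GPC3, DLK1, EPCAM, PROM1, SPP1, SOX4, SOX9, IGF2BP1 and IGF2BP3), and all 10 were found among the 56969 Ensembl genes of the table and among the 16081 with a mean of at least 10 normalized counts, which were tested. The control group received a control siRNA and the other group HCF-1 siRNA, in each case by reverse transfection with a repeat 2 days later and RNA extraction 2 days after that. Each group had 8 libraries, which the labels call biological replicates without saying whether they came from separate cultures or days, so p-values measure the spread between these libraries; stranded mRNA libraries were made from bulk RNA.

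During liver development, hepatoblasts give rise to hepatocytes and to bile duct cells. They make alpha-fetoprotein and carry surface proteins such as glypican-3 and DLK1, and several of these genes are switched off in the adult liver and expressed again in liver cancers. HepG2 cells came from a liver tumour with hepatoblast features and are widely known to make alpha-fetoprotein.

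HCFC1, the targeted gene, was at 4851 to 6878 normalized counts in control siRNA libraries and at 3112 to 4171 in HCF-1 siRNA libraries, with no overlap, and its mean after knockdown was 65.4% of the control mean (log2 fold change -0.61, limma adjusted p = 4.52e-06). Of the hepatocyte transcripts, APOB, SERPINA1, ALB and TF were abundant, with the lowest control mean of the 4 at 110643 for TF, whereas TTR averaged 588 normalized counts in control libraries. Of the markers of other cell types, PTPRC, CD3E, KDR and LUM were at or near 0, whereas others were expressed, with control means of 29693 for LYZ, 183 for LAPTM5, 347.1 for ESAM, 161 for TIE1, 3069 for TAGLN, 746 for COL1A1 and 454 for PDGFRB. Recovered reads per library ran from 21030830 to 32820459 in the control group and from 25098840 to 43186890 in the HCF-1 siRNA group (two-sided exact permutation p = 0.0375). The part of this depth difference in the results was not tested.

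Of the 10 genes, 6 passed the test after HCF-1 siRNA. DLK1, AFP, GPC3 and SOX9 rose and EPCAM and SOX4 fell, while PROM1, IGF2BP1, IGF2BP3 and SPP1 did not pass. A gene was called where its limma adjusted p (Benjamini-Hochberg, over all 16081 genes) was under 0.05. That threshold called 36.6% of all genes tested, 18.2% higher and 18.3% lower, and 45.6% of the 7921 genes with a mean of at least 500, the range in which all 10 genes lie. With values scaled to the same total, 2585 genes were called higher and 3395 lower, in place of 2932 and 2947. The share of the 10 genes called, 6 of 10, was therefore not far above that of other well-measured genes. The groups did not overlap for 4 of the 10 genes (DLK1, AFP, GPC3 and SOX4), against 9.82% of all genes tested and 14.3% of those with a mean of at least 500. DLK1 was the 1 gene of the 10 that was called and changed at least 1.5-fold, which 8.9% of all genes did. The 1.5-fold limit was applied to the limma log2 fold change, and AFP lay just under it at 0.578 (ratio of means 1.496). The count at this limit was 2 when any 1 of control replicates 1, 2 and 5 and HCF-1 siRNA replicates 3, 5 and 6 was left out. The median log2 fold change of the 10 genes was 0.12, beside 0.01 for all genes tested.

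**Figure D1:**
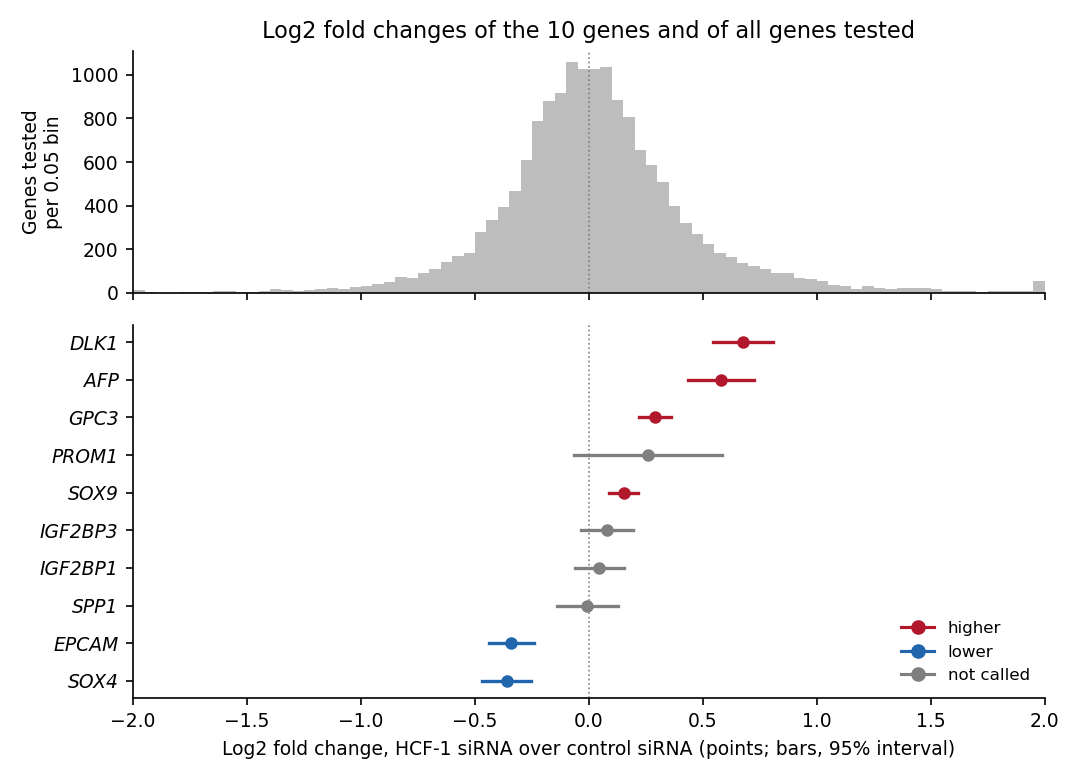
Log2 fold change after HCF-1 knockdown relative to the control group (horizontal axis) for all 16081 genes tested (upper panel, genes per 0.05 bin, with the 64 genes beyond 2 in either direction placed in the end bins) and for the 10 genes (lower panel, points with 95% intervals, 8 libraries against 8). Red marks genes called higher, blue genes called lower and grey genes not called; DLK1 lies farthest to the right at 0.68 and SOX4 farthest to the left at -0.36.

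The 10 genes covered a wide range of levels. Counts were divided by the length of each gene's annotated exons, so that genes can be compared with each other as normalized counts per kilobase. In control libraries GPC3 stood first at 25750 ± 1149 per kilobase (mean and SD, n = 8), followed by AFP at 6521 ± 606 and SPP1 at 3188 ± 333. SOX9 (1827 ± 86.1), EPCAM (1750 ± 110) and IGF2BP1 (1535 ± 115) came next, and the ranges of neighbours in that order overlapped over the 8 libraries. IGF2BP3 (488 ± 37.2) lay below them, followed by DLK1 (286 ± 12.1) and SOX4 (248 ± 17.3), whose ranges also overlapped. PROM1 was the lowest, at 76.5 ± 19.03 per kilobase. In counts not divided by length, GPC3 was the 16th and AFP the 95th most abundant of all genes tested.

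After HCF-1 siRNA the order changed at 1 place, where IGF2BP1 (1583 ± 112 per kilobase) stood above EPCAM (1382 ± 85.6), with overlapping ranges. DLK1 rose to 460 ± 55.0 per kilobase, so that its range, 387 to 555, overlapped that of IGF2BP3, 455 to 577, and no longer that of SOX4, 179 to 215. The lengths are unions of all annotated exons, so a gene whose long exons are seldom used is placed too low by this measure.

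**Figure D2:**
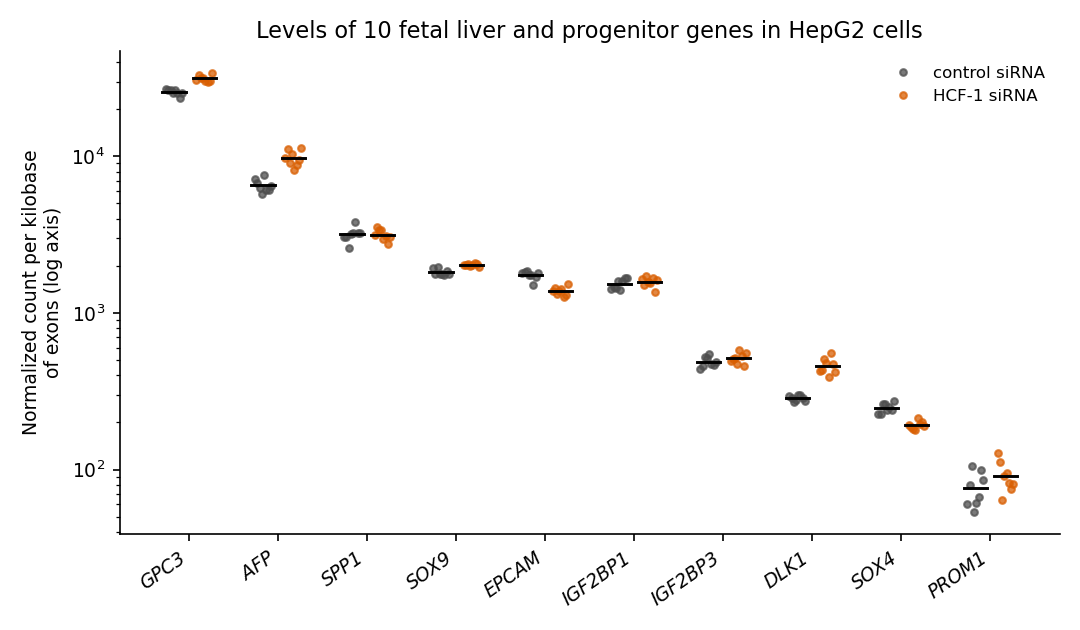
Normalized count per kilobase of annotated exons (vertical log axis) of each gene in 8 control siRNA libraries (grey) and 8 HCF-1 siRNA libraries (orange), with 1 point per library and a black line at each group mean. Genes are ordered by the control mean, from GPC3 at 25750 to PROM1 at 76.5.

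AFP encodes alpha-fetoprotein, the main plasma carrier protein of the fetus and a relative of albumin. Control libraries held 18685 (lowest), 20867 (median) and 24642 (highest) normalized counts, and HCF-1 siRNA libraries held 26580, 31332 and 36827. All 8 HCF-1 siRNA libraries lay above the highest control library. The mean went from 21252 ± 1976 to 31797 ± 3610 (SD, n = 8 each), 49.6% higher, with a log2 fold change of 0.58 ± 0.07 (SE; limma adjusted p = 5.29e-06). Log2 fold changes are on the log2(normalized count + 1) scale unless an alternative is named. RNA was taken from whole cultures, so a change in the number of cells that express a gene and a change in RNA per cell cannot be told apart.

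The RefSeq sequence before the AFP start site is shown because AFP rose with no overlap between groups and its liver expression is known to run through HNF1 sites in this stretch. It covers the 250 bases before the start on build GRCh38.p14, chr4:73435971-73436220, plus strand, and is printed 5′ to 3′ with matches in capitals.

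AFP: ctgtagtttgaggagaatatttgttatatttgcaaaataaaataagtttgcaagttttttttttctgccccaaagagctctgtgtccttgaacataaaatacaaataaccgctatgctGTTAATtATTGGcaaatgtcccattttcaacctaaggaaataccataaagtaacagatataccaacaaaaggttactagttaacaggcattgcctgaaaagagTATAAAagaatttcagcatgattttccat

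The capitals mark GTTAAT, part of the HNF1 site, then the reverse complement of CCAAT, and then TATAAA of the TATA box, which starts 29 bases before the transcription start. GTTAAT occurred in 6.23%, CCAAT in 32% and TATAAA in 10.7% of all 35116 RefSeq windows of the same length, on either strand. Letters from the sites of factors that recruit or work with HCF-1 were searched as well, namely ACTACAA (THAP11 and ZNF143), CCGGAAG (ETS factors), TTTGGCG with TTTCCCG (E2F) and ATGGCGG (YY1). None of these 5 matched the AFP window. A match is a description of the letters only.

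ALB, the adult relative of AFP beside it in the genome, rose as well. It went from 144746 ± 11975 to 207757 ± 20699 normalized counts (SD, n = 8 each), a log2 fold change of 0.52 ± 0.06 (limma adjusted p = 4.51e-06). The ratio of AFP to ALB within a library, per kilobase, was 0.145 to 0.159 (median 0.152) in controls and 0.151 to 0.17 (median 0.157) after HCF-1 siRNA. These ranges overlapped, and the difference did not pass after adjustment over the 2 ratios tested (two-sided exact permutation p = 0.0443, Benjamini-Hochberg adjusted 0.0886). The log2 fold changes of AFP and ALB, 0.58 and 0.52, were close in size.

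Within each group, libraries with more ALB also held more AFP. Over the 8 control libraries Pearson's r was 0.954 (exact permutation p = 4.96e-04, adjusted 9.92e-04 over the 2 groups) and Spearman's rho was 0.905 (exact permutation p = 0.00456, adjusted 0.00724). Over the 8 HCF-1 siRNA libraries r was 0.925 (exact permutation p = 0.00124, adjusted 0.00124) and rho was 0.881 (exact permutation p = 0.00724, adjusted 0.00724). Without the 2 libraries farthest from the median ALB level r was 0.802 in controls and 0.841 after HCF-1 siRNA, over 6 libraries each. This relation was computed after the values had been plotted. Both genes are counted from the same library and scaled by the same factor, which can move them together.

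**Figure D3:**
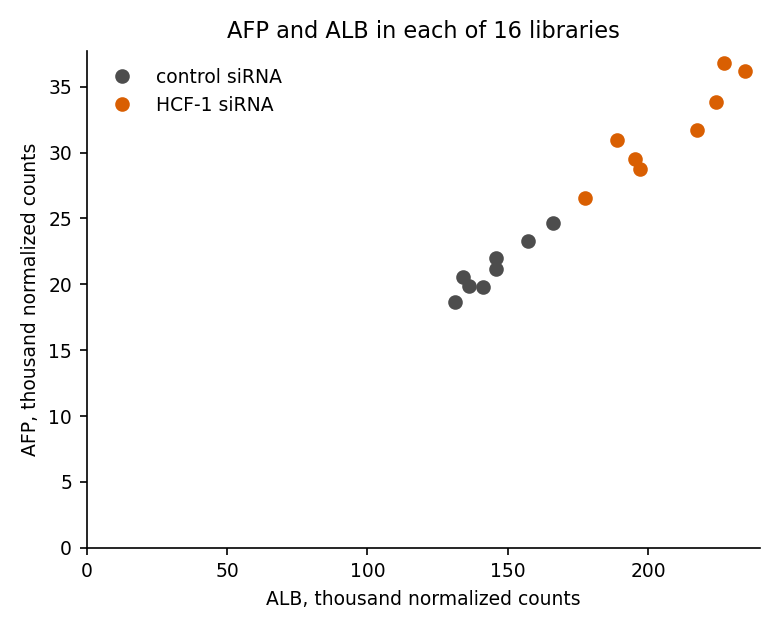
AFP (vertical axis) against ALB (horizontal axis), both as normalized counts, in each of the 16 libraries (grey, control siRNA; orange, HCF-1 siRNA). In both groups libraries with more ALB tend to hold more AFP, and the HCF-1 siRNA libraries lie at the upper end, with AFP at 26580 or more. No line was fitted.

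Among the other albumin relatives, AFM was near the limit for testing, at a mean of 11.2 normalized counts in controls, and did not pass, and GC was under that limit. Of 11 regulators of AFP transcription 4 rose, 0 fell and 7 missed the threshold (median log2 fold change 0.07). ZHX2 and ZFHX3, known as repressors of AFP, rose together with it. ZHX2 went from 1451 ± 103 to 1882 ± 293 normalized counts (log2 fold change 0.36, limma adjusted p = 0.00167), and ZFHX3 from 3082 ± 213 to 3929.9 ± 612 (0.34, adjusted p = 0.0023). ZBTB20, another repressor of AFP, was at 52.5 ± 28.9 and 95.03 ± 60.2 normalized counts and did not pass (adjusted p = 0.0893). FOXA1, a pioneer factor of liver genes, rose from 3594 ± 228 to 4067 ± 299.8 normalized counts (0.18, adjusted p = 0.0101).

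GPC3 encodes glypican-3, a cell-surface heparan sulfate proteoglycan that binds Wnt and Hedgehog ligands and is abundant in fetal liver and liver cancer. Control libraries held 63483 (lowest), 70387 (median) and 73123 (highest) normalized counts, and HCF-1 siRNA libraries held 80924, 84714 and 92683. The groups did not overlap, and both were narrow, with a coefficient of variation of 4.46% and 4.86%. The mean rose by 22.4% (log2 fold change 0.29 ± 0.03, limma adjusted p = 3.93e-06). By size this change was modest, at percentile 79.8 of the log2 fold changes of all genes tested.

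Of the other glypicans, GPC1 and GPC4 moved the other way. GPC1 fell from 2076 ± 254 to 1376 ± 187 normalized counts (log2 fold change -0.60, limma adjusted p = 5.43e-05), and GPC4 fell from 83.1 ± 11.1 to 57.2 ± 16.3 (-0.57, adjusted p = 0.0107). GPC6, the next most abundant glypican, was at 4535 ± 267 and 4629.6 ± 300.4 normalized counts and did not pass (adjusted p = 0.647). In the list of glypicans, sulfatases and NOTUM, 0 of 6 genes tested rose and 2 fell (median log2 fold change -0.24). Among Wnt pathway target genes 4 of 11 rose, 2 fell and 5 missed the threshold (median 0.02). LGR5 (0.47, adjusted p = 0.00155), a receptor of R-spondins, and RNF43 (0.22, adjusted p = 0.00857) were among those that rose. The 2 that fell were TCF7 (-0.28, adjusted p = 0.0152) and AXIN2 (-0.19, adjusted p = 0.00183).

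DLK1 encodes a transmembrane protein of the Delta-like family that marks hepatoblasts and is known to act on Notch receptors. Control libraries held 1432 (lowest), 1520.0 (median) and 1597 (highest) normalized counts, and HCF-1 siRNA libraries held 2057, 2411 and 2950. All 8 HCF-1 siRNA libraries lay above all 8 control libraries. The mean rose by 60.6%, from 1521 ± 64.2 to 2443 ± 292, with a log2 fold change of 0.68 ± 0.06 (limma adjusted p = 4.55e-07). This was the largest change among the 10 genes. The spread between libraries was wider after HCF-1 siRNA, with a coefficient of variation of 12.0% against 4.22%, and HCF-1 siRNA replicate 6 was the highest.

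DLK1 is expressed from the paternal copy of an imprinted cluster that also holds MEG3, MEG8, RTL1 and DIO3. These 4 were under the limit for testing, with RTL1 at a mean of 4.95 normalized counts in controls and 5.23 after HCF-1 siRNA and MEG3 at 3.36 and 1.497. DLK1 was thus the only gene of this cluster, beside these 4, with enough counts to be tested.

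Among Notch pathway genes 3 of 11 rose, 3 fell and 5 missed the threshold (median log2 fold change 0.04). JAG1, the most abundant Notch ligand measured, rose from 5775 ± 264 to 7448 ± 461 normalized counts with no overlap (0.37, limma adjusted p = 2.59e-06). The less abundant ligands DLL3 (-1.02, adjusted p = 4.18e-05) and DLL4 (-0.49, adjusted p = 0.0179) fell, from 45.1 ± 8.12 to 21.7 ± 3.66 and from 66.7 ± 8.38 to 48.0 ± 10.6 normalized counts. NOTCH3, a receptor, rose from 36.0 ± 20.6 to 81.6 ± 45.4 (1.11, adjusted p = 0.0247), a call lost when HCF-1 siRNA replicate 4 was left out (0.94, adjusted p = 0.0512, with a range of 0.00485 to 0.0512 over the alternatives). Of the other receptors, NOTCH1 rose from 842 ± 69.9 to 1088 ± 129 normalized counts (0.37, adjusted p = 7.49e-04). NOTCH4 fell from 33.6 ± 7.07 to 20.0 ± 5.91 (-0.74, adjusted p = 0.00581). NOTCH2, the most abundant receptor, was at 2325 ± 719 and 2261 ± 689 and did not pass (adjusted p = 0.855). DLK2, the closest relative of DLK1, was at 76.5 ± 15.6 and 69.6 ± 19.4 normalized counts and did not pass (adjusted p = 0.503). HES1, a standard Notch target, did not pass either, at 749 ± 31.1 and 778 ± 29.1 (adjusted p = 0.34).

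**Figure D4:**
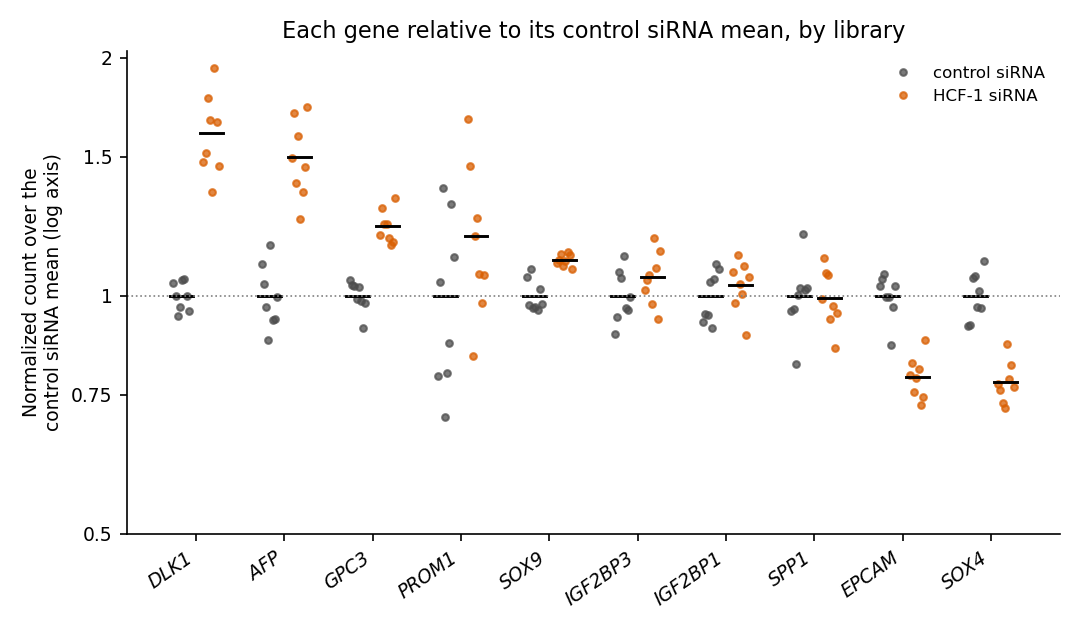
Normalized count of each gene in each library divided by that gene's mean over the control siRNA libraries (vertical log axis), for 8 control siRNA (grey) and 8 HCF-1 siRNA (orange) libraries, with black lines at the group means. Genes are ordered from the largest increase to the largest decrease; DLK1, AFP and GPC3 lie wholly above their controls, SOX4 lies wholly below, and PROM1 shows the widest spread in both groups.

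EPCAM encodes an epithelial adhesion protein of bile duct cells, hepatic progenitors and many carcinomas. Control libraries held 3815 (lowest), 4463 (median) and 4701 (highest) normalized counts, and HCF-1 siRNA libraries held 3207, 3482 and 3879. The groups overlapped by 1 library on each side, as control siRNA replicate 6 was below HCF-1 siRNA replicate 8. The mean fell by 21.1% to 3481 ± 216 from 4409 ± 277 (log2 fold change -0.34 ± 0.05, limma adjusted p = 2.40e-05).

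Several other epithelial and bile duct markers fell with EPCAM. In the list of biliary and progenitor surface markers 1 of 12 genes tested rose, 7 fell and 4 missed the threshold (median log2 fold change -0.25). KRT23 fell from 4726 ± 323 to 3118 ± 313 normalized counts (-0.60, limma adjusted p = 7.65e-07) and KRT19, a bile duct keratin with pseudogene copies that can share its reads, from 16453 ± 1286 to 11225 ± 771 (-0.55, adjusted p = 4.55e-07). The tight junction genes CLDN3 (-0.72, adjusted p = 9.62e-04) and CLDN4 (-0.22, adjusted p = 0.00217) and the E-cadherin gene CDH1 (-0.30, adjusted p = 0.00564) fell too. KRT7 fell (-1.03, adjusted p = 0.034) at a low level, and 12 of 26 alternatives lost its call. These were edgeR (-0.75, adjusted p = 0.16), DESeq2 (-0.74, adjusted p = 0.158), the fit with no filter and those leaving out any 1 of control replicates 1, 3, 5 and 7 and HCF-1 siRNA replicates 2, 3, 5, 6 and 8, and KRT7 had an adjusted p of 0.00131 to 0.16 over all alternatives. ONECUT1, a transcription factor of early liver and bile duct development, rose from 152 ± 46.9 to 243 ± 42.8 (0.72, adjusted p = 0.0033). CD24 was not found in the table by symbol, and CD44, THY1, NCAM1, KIT, CLDN7 and MUC1 were under the limit for testing.

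PROM1 encodes prominin-1 (CD133), a surface protein used to enrich progenitor and tumour-initiating cells. Control libraries held 399 (lowest), 544 (median) and 778 (highest) normalized counts, and HCF-1 siRNA libraries held 477, 641 and 952. The ranges overlapped over most of their length. The mean was 568 ± 141 in controls and 677 ± 153 after HCF-1 siRNA, and the difference did not pass (log2 fold change 0.26, 95% interval -0.07 to 0.58, limma adjusted p = 0.207). PROM1 had the widest spread of the 10 genes, with a coefficient of variation of 24.9% and 22.7%, and its interval held both no change and a change of the size seen for GPC3.

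SPP1 encodes osteopontin, a secreted phosphoprotein made by bile duct cells and by many liver cancers. Control libraries held 6061 (lowest), 7474 (median) and 8864 (highest) normalized counts, and HCF-1 siRNA libraries held 6350, 7246 and 8260. The HCF-1 siRNA range lay within that of the controls. The log2 fold change was -0.01 (95% interval -0.14 to 0.13, limma adjusted p = 0.951), and the alternatives gave -0.05 to 0.03. Among osteopontin receptors and related matrix proteins 0 of 5 genes tested rose and 1 fell (median -0.22). The gene that fell was ITGB5, an integrin subunit, from 8189 ± 437 to 7047 ± 385 normalized counts (-0.22, adjusted p = 4.36e-04).

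SOX4 and SOX9 encode HMG-box transcription factors of developing bile ducts and progenitor cells, and they moved in opposite directions. For SOX4, control libraries held 1328 (lowest), 1437 (median) and 1604 (highest) normalized counts, and HCF-1 siRNA libraries held 1047, 1116 and 1258. No HCF-1 siRNA library reached the lowest control library. The mean fell by 22.2%, a log2 fold change of -0.36 ± 0.05 (limma adjusted p = 3.34e-05).

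The window before the SOX4 start is shown as that of the gene that fell with no overlap between groups. It covers 250 bases, GRCh38.p14 chr6:21593501-21593750, plus strand.

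SOX4: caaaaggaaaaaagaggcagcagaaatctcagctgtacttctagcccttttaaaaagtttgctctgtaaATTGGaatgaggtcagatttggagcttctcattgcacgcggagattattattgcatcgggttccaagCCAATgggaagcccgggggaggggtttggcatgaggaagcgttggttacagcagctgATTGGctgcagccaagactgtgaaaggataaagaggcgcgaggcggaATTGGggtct

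The capitals mark CCAAT or its reverse complement, the letters bound by NF-Y, which stood at 4 places, 181, 114, 57 and 10 bases before the start. None of the 5 motifs of HCF-1-linked factors nor TATAAA matched this window, which had a GC content of 48.8%, against 31.6% for AFP and a median of 58% over all windows.

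For SOX9, control libraries held 6891 (lowest), 7009 (median) and 7779 (highest) normalized counts, and HCF-1 siRNA libraries held 7779, 7962 and 8154. Control siRNA replicate 3 was the only control library to reach the HCF-1 siRNA range, and the lowest HCF-1 siRNA library, replicate 8, lay just under it. The mean rose by 11.0% (log2 fold change 0.15 ± 0.03, limma adjusted p = 8.17e-04). The HCF-1 siRNA libraries were close together, with a coefficient of variation of 1.69% against 4.71% in controls. The increase of SOX9 was the smallest of the 6 called changes.

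Of the other SOX family genes 1 of 9 tested rose, 2 fell and 6 missed the threshold (median log2 fold change 0.24). That median is the value of SOX7, at means of only 15.0 and 17.7 normalized counts. Above it, SOX15 was at 12.9 and 20.1, and SOX10 reached the limit for testing only through HCF-1 siRNA replicate 8. Below it, SOX8 was also low, at 18.8 and 19.5. SOX12, a close relative of SOX4 and the most abundant of the 9, fell from 6020 ± 194 to 5514 ± 400 normalized counts (-0.13, limma adjusted p = 0.0203). SOX18 fell (-0.19, adjusted p = 0.0284), but SOX18 missed the threshold with the replicate block (adjusted p = 0.0514) and when control replicate 1 or HCF-1 siRNA replicate 1 or 8 was left out (0.0124 to 0.0829 over the alternatives). SOX6 rose from 51.8 ± 29.2 to 103 ± 51.4 (1.02, adjusted p = 0.0353), a call lost when any 1 of control replicates 2, 4, 5 and 7 and HCF-1 siRNA replicates 1, 2 and 6 was left out (adjusted p for SOX6 of 0.015 to 0.0748 over the alternatives). Without a filter on low values none of the 3 was called (adjusted p 0.0514 for SOX12, 0.0829 for SOX18 and 0.0748 for SOX6), and leaving out HCF-1 siRNA replicate 1 left 1 SOX gene called. SOX5 and SOX13 did not pass, except when control replicate 7 was left out for SOX5 (0.34, adjusted p = 0.0373) and control replicate 4 for SOX13 (0.20, adjusted p = 0.0454).

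IGF2BP1 and IGF2BP3 encode RNA-binding proteins that stabilise fetal transcripts such as IGF2 mRNA, and both are normally silent in adult liver. For IGF2BP1, control libraries held 12710 (lowest), 13906 (median) and 15321 (highest) normalized counts, and HCF-1 siRNA libraries held 12477, 14616 and 15720. For IGF2BP3, control libraries held 3709, 4068 and 4655 normalized counts, and HCF-1 siRNA libraries held 3876, 4376 and 4912. The groups overlapped for both genes. The log2 fold change was 0.05 for IGF2BP1 (95% interval -0.06 to 0.15, limma adjusted p = 0.515) and 0.08 for IGF2BP3 (95% interval -0.04 to 0.19, adjusted p = 0.282), so increases as large as that of GPC3 lie outside both intervals.

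The ratio of IGF2BP3 to IGF2BP1 within a library, per kilobase, was 0.278 to 0.392 in controls and 0.3 to 0.374 after HCF-1 siRNA (two-sided exact permutation p = 0.657, adjusted 0.657). MALSU1, on the opposite strand, shares 17.9% of the annotated exon bases of IGF2BP3. It was listed at 975 to 1202 normalized counts in controls and at 966 to 1078 after HCF-1 siRNA. No source used here says whether strand was used in counting, and without it the reads of both genes cannot be told apart in the shared stretch.

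The IGF2BP3 window is shown because it was the 1 window among the genes with a RefSeq promoter that held the ACTACAA motif. It covers 250 bases, GRCh38.p14 chr7:23470492-23470741, minus strand.

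IGF2BP3: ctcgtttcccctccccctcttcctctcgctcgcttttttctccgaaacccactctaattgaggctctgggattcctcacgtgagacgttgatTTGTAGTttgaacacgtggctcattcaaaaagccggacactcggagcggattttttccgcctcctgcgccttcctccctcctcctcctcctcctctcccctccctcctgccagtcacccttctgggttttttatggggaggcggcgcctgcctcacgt

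The capitals mark the reverse complement of ACTACAA, 158 bases before the start, letters held by 2.47% of all windows. Of the other 4 motifs of HCF-1-linked factors, TTTCCCG matched once among these genes, in 1 of the 4 PROM1 windows. IGF2BP3 was among those that did not pass, and the match says nothing of binding.

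IGF2BP2, the third gene of the family and the 1 that adult tissues also express, rose from 5497 ± 280 to 6303 ± 532 normalized counts (log2 fold change 0.19, limma adjusted p = 0.00536). The LIN28 and let-7 axis controls IGF2BP1, IGF2BP3 and other fetal transcripts. In that list 3 of 10 genes tested rose, 1 fell and 6 missed the threshold (median -0.04), a share of calls near the 36.6% of all genes tested. DICER1, which processes microRNAs, rose (0.44, adjusted p = 0.0161), and HMGA1, a chromatin protein abundant in embryonic tissue, fell from 21966 ± 999 to 18769 ± 1229 (-0.23, adjusted p = 2.58e-04), with the reservation that pseudogene copies of HMGA1 can share its reads. LIN28B, the let-7 inhibitor expressed here, was at 2579 ± 252 and 2382 ± 223 normalized counts and did not pass (adjusted p = 0.204), nor did HMGA2 at 9327 ± 557 and 8838 ± 659 (adjusted p = 0.208).

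**Figure D5:**
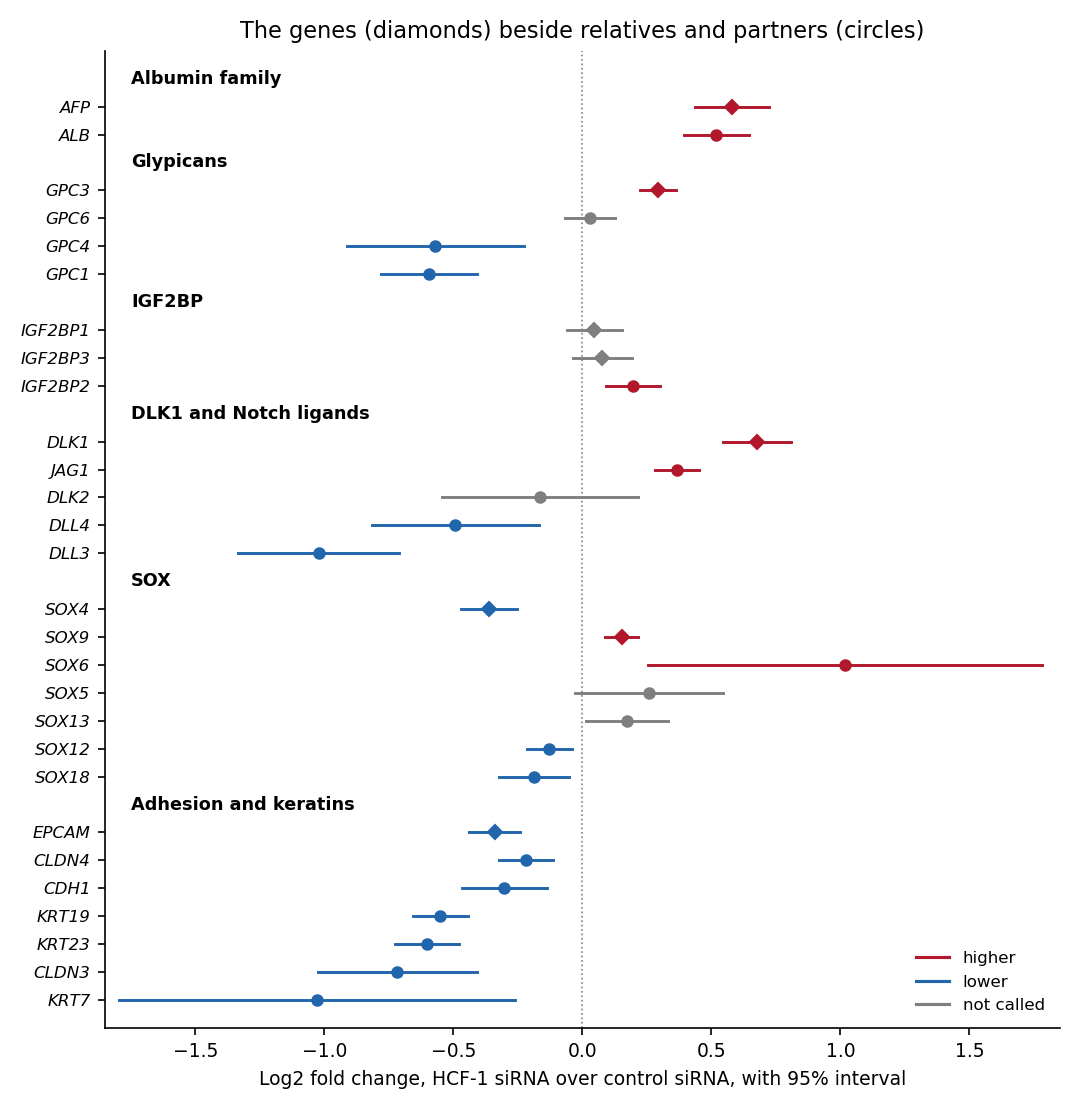
Log2 fold changes with 95% intervals (horizontal axis) of the 10 genes other than SPP1 and PROM1 (diamonds) and of relatives or partners with a mean of at least 30 normalized counts (circles), 8 libraries against 8. Red marks genes called higher, blue genes called lower and grey genes not called; AFP and ALB lie side by side at 0.58 and 0.52, the glypicans lie on both sides of 0, and the adhesion and keratin genes lie below 0 with EPCAM.

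Adult hepatocyte markers were compared with the fetal genes. Of 12 genes tested 9 rose, 0 fell and 3 missed the threshold (median log2 fold change 0.49), and the largest called increases were those of ARG1 (0.95, limma adjusted p = 0.00256), G6PC (0.78, adjusted p = 0.00452) and PCK1 (0.74, adjusted p = 1.78e-04). The increases of AFP, GPC3 and DLK1 thus occurred beside increases in adult genes in the same libraries. Of 6 fetal enzyme isoforms 4 rose and 2, ALDOA and PKM, fell (median 0.24). The 2 that fell were the most abundant of the 6. ALDOA went from 57557 ± 2885 to 53027 ± 3821 normalized counts (-0.12, adjusted p = 0.0328) and PKM from 39133 ± 2142 to 34009 ± 1427 (-0.20, adjusted p = 2.40e-04). The summed level of the list was 97392 to 110696 in controls and 88066 to 105613 after HCF-1 siRNA. CYP3A7, the fetal cytochrome P450, rose from 54.6 ± 11.1 to 76.6 ± 11.1 normalized counts (0.49, adjusted p = 0.00767), as did ALDOC (0.43, adjusted p = 3.74e-04) and HK2 (0.25, adjusted p = 0.0115).

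Markers of other cell types moved with the groups in part. Of 4 fibroblast and mesenchymal markers tested, out of 8, 0 rose and 2 fell, TAGLN (-0.83, limma adjusted p = 1.44e-07) and COL1A1 (-0.56, adjusted p = 0.00718). The summed level of that list was 3641 to 4942 normalized counts in controls and 2380 to 3519 after HCF-1 siRNA. That sum was nearly all TAGLN, COL1A1 and PDGFRB. PDGFRB was at 454 ± 75.4 and 600 ± 178 normalized counts and did not pass (adjusted p = 0.0859). COL1A2, VIM, LUM and DCN were under the limit for testing. Of 5 blood cell markers tested, out of 8, 1 fell, LAPTM5 (-0.32, adjusted p = 0.00694), and the sums, 26912 to 31746 and 27944 to 34215, were nearly all LYZ. Of 5 endothelial markers tested, out of 7, 1 fell, ESAM (-0.89, adjusted p = 4.39e-05), with sums of 487 to 712 and 394 to 589. The blood cell count became 2 when control replicate 3, 4 or 7 or HCF-1 siRNA replicate 3 was left out. The endothelial count became 2 in DESeq2 and when control replicate 1, 3 or 5 or HCF-1 siRNA replicate 4 was left out. Their part in the results for the 10 genes was not tested.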

How the data were processed

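The deposited values are normalized counts (a signal) for every Ensembl gene. Per the submitters' processing notes, the tools were DESeq2 1.16.1, featureCounts 1.4.4, STAR 2.4.1d and cutadapt 1.4.2, with build hg19. The sources used here give no annotation release, strand setting or filter. Within a library all values were multiples of what 1 read is worth (100% came out within 0.01 of a whole read), which gave the recovered reads. In 1 column the name lacks a digit and was matched by group and number.

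The groups were compared with limma 3.58.1 in R 4.3.3 (trend and robust options) on log2(normalized count + 1), keeping genes whose mean was at least 10, with Benjamini-Hochberg adjustment over all of them. The script was tested on simulated data. Single values were compared by exact permutation. Alternatives included edgeR 4.0.16 and DESeq2 1.42.0 on recovered reads, which called 5853 and 6258 genes. No 2 libraries of a group agreed within sampling noise.

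The 10 genes, the 15 gene lists and the tests were chosen with earlier results of these data known. Named genes were the 10, HCFC1 and, per list, up to 3 called genes of largest change with a group mean of at least 50, or the most abundant where none passed; relatives with a mean of at least 30, and other genes given as values, were added after their values were seen. Exon lengths came from GENCODE (GRCh38) by Ensembl identifier. Promoters came from RefSeq (GRCh38.p14), not the authors' build, and matched 5 of the 10 symbols; the HNF1, TATA box and NF-Y motifs were added after the windows were seen. Some list genes are not reported here and were left out of the list counts.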

Additional observations from a re-analysis of the deposited data

Results flagged for a closer look

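No library lay apart in either group for any of the 10 genes. A library was taken to lie apart where the space between it and its closest neighbour was a large part of the spread of its 8 values (Dixon's critical value, 0.526). Among the 106 groups of values examined, which did not take in every list gene, 5 had such a library, and chance picks about 1 in 20. PROM2 and SOX10, each with 1 library far above the rest, were not among those examined. Nor was COL3A1, with a control maximum of 246 normalized counts against a control median of 5.48. The 5 groups are given next. For ZHX2, a repressor of AFP, replicate 8 of the HCF-1 siRNA group held 2506 normalized counts and the other 7 held 1548 to 1987. For TCF7, replicate 3 of that group held 1653 and the others 1026 to 1257. For KRT23, replicate 5 of that group held 3771 and the others 2650 to 3177. For KRT7, replicate 7 of that group held 83.0 and the others 8.95 to 36.7. For DLL3, replicate 8 of the control group held 62.1 and the others 35.6 to 47.9.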

How the results depend on the processing

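DLK1, AFP, GPC3, SOX9, EPCAM and SOX4 kept their direction and their call under all 28 alternatives, which varied the pseudocount, filter, scaling, library weights, test and library left out. The count of the 10 genes called, which leaves out the exact permutation test, was 6 (4 higher, 2 lower) in each of the other 27. Log2 fold changes ranged from 0.64 to 0.71 for DLK1, 0.55 to 0.61 for AFP, 0.26 to 0.30 for GPC3, 0.12 to 0.17 for SOX9, -0.37 to -0.32 for EPCAM and -0.39 to -0.34 for SOX4. SPP1 was never called and changed sign when control replicate 6 (0.0317) or HCF-1 siRNA replicate 5, 7 or 8 was left out, within a range of -0.0466 to 0.0317. Over all genes 5163 to 6258 were called. With the replicate number as a block 5484 genes and 6 of the 10 were called; same-numbered libraries correlated at -0.0738 to 0.0976, and 1 of 8 control libraries correlated best with its own number, so the numbers were not taken as pairs. Each of the 10 genes was at 399 or more normalized counts in each library. The scaling without the 100 most abundant genes, and the alternatives for HCFC1 and the list genes, were chosen after seeing the data.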

Other observations

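PROM2, the paralog of PROM1, was listed at 802 normalized counts in HCF-1 siRNA replicate 1 and at 0 to 6.50 in the other 15 libraries. SOX10 was listed at 470 in HCF-1 siRNA replicate 8 and at 0 to 5.09 in the other 15. Neither gene passed in limma (adjusted p = 0.421 for PROM2 and 0.574 for SOX10).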
